A study of Mus musculus with 157 samples.

Results

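Etoposide-treated B cells were fractionated on sucrose gradients, and the mRNAs that sedimented with many ribosomes (heavy polysomes, fractions 11 to 16) were compared with those that sedimented with a single ribosome (monosomes, fractions 4 to 7) of the same gradient. The libraries were chosen by treatment and fraction alone, which gave 40 of the 157 libraries of the series: 24 from heavy polysomes and 16 from monosomes, in 4 gradients. An mRNA bound by many ribosomes sediments deep in the gradient, and its place depends on how often ribosomes start on it and on how long its coding sequence is. mRNAs that are held back from initiation, that have short reading frames or that are not translated collect near the top. In mitogen-activated B cells the translation machinery and the immunoglobulin chains are among the best known users of this control: mRNAs with a 5′ terminal oligopyrimidine (TOP) tract encode ribosomal proteins and elongation factors and can leave polysomes as a group, whereas immunoglobulin mRNAs are translated on polysomes at the endoplasmic reticulum (ER).

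The cells were splenic B cells of C57BL/6Babr mice, cultured in 3 groups of 4 gradients each. Cells of the LPS group received the B cell mitogen lipopolysaccharide (LPS, 10 µg/ml) for 48 h. The LPS+ET group, described here, had the same activation and then etoposide (20 µM, 4 h), a topoisomerase II poison that leaves double strand breaks in DNA. In the third group LPS was given for 47 h and the ATM kinase inhibitor KU55933 (10 µM) for 1 h before etoposide (LPS+ET+KU), and all groups received cycloheximide, which holds ribosomes on mRNA, before lysis. The study describes its gradients as biological replicates without saying how many animals each stands for, so p-values measure the spread between these gradients. The gradients are named by their library pool, LUL15 to LUL18.

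Each library held counts of sequence tags from mRNA 3′ ends, so levels, in tags scaled to the same total in every library (CPM), can be compared between genes without a length correction. Because fractions were sequenced as separate libraries and each was scaled to its own total, a ratio shows enrichment among the mRNAs of a class and not a number of molecules. The 40 libraries held 32104 to 2665817 tags (median 480151.5), and 7 held fewer than 100000. Gradient LUL16 stood apart: 4 of those 7 were its heavy fractions, its heavy libraries summed to 1948211 tags against 6932921 to 8789663 in the other gradients, and its ratios correlated with those of the others at r = 0.403 to 0.660 across genes, against up to 0.799 between LUL17 and LUL18. Its values are given beside the results below. The B cell markers summed to 5955 to 8849 CPM in the monosomes and to 30750 to 55530 CPM in the heavy polysomes, led by Ighm. Not all were high: the lineage factor Pax5 had means of 0.149 CPM in monosomes and 0.778 CPM in heavy polysomes. A further entry of Ebf1 had 2.82 and 0.757 CPM. Among the 6 listed T cell markers none reached a mean of 5 CPM (summed level 3.43 to 8.16 CPM in monosomes with 3 markers at 0, 1.61 to 8.53 CPM in heavy polysomes), and the myeloid markers summed to 46.3 to 100 and 96.2 to 215 CPM.

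Ribosomal protein mRNAs, other TOP mRNAs, mitochondrially encoded mRNAs and the host transcripts of small nucleolar RNAs were mostly higher in monosomes than in heavy polysomes, whereas mRNAs for immunoglobulin chains, ER chaperones, aminoacyl-tRNA synthetases, mitotic proteins and giant proteins were mostly higher in heavy polysomes. Of 9163 genes with a mean of at least 5 CPM over the 8 class values, 3331 (36.4%) were higher in heavy polysomes and 665 (7.26%) were higher in monosomes at an adjusted p under 0.01, two-sided, by limma with the gradient as block, together 43.6%. Among the immunoglobulins, switched heavy chains reached 5 CPM through their heavy polysome values, so their direction is no support. All values are log2 ratios of heavy over monosome CPM, with 1 CPM added, so 1 stands for a 2-fold enrichment. The median ratio was 1.54 among the heavy calls and −1.74 among the monosome calls, and 722 and 265 of them lay beyond 2 and −2. Without LUL16, 3718 genes were called heavy and 773 monosome, without LUL15 2151 and 425, and without LUL18 2220 and 437.

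How many genes counted as heavy depended on the zero point. The median of all genes was 0.71 (0.76 in LUL15, 0.57 in LUL16, 0.83 in LUL17 and 0.80 in LUL18), so that 83.4% of calls were in the heavy direction. With each gradient centred on its median gene, 1290 genes (14.1%) were higher in heavy polysomes and 1367 (14.9%) in monosomes, a heavy share of 48.6%, and edgeR on summed counts called 2037 (22.2%) and 1610 (17.6%), a share of 55.9%, together 39.8% of genes. DESeq2 called 1681 (18.3%) and 1787 (19.5%), together 37.8%. In 3379 genes (36.9%) every heavy value lay above every monosome value, and in 684 (7.46%) every one lay below. All 665 monosome calls and 1290 of the heavy calls were called in the same direction on both scales. Centring subtracts a positive value from every ratio of a gradient, so it favours monosome calls, and keeping such a call after centring is no check of it. Counts after centring are therefore given beside the main counts below. Over all genes the heavy and monosome shares are 36.4% and 7.26% in the main counts and 14.1% and 14.9% after centring.

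**Figure D1:**
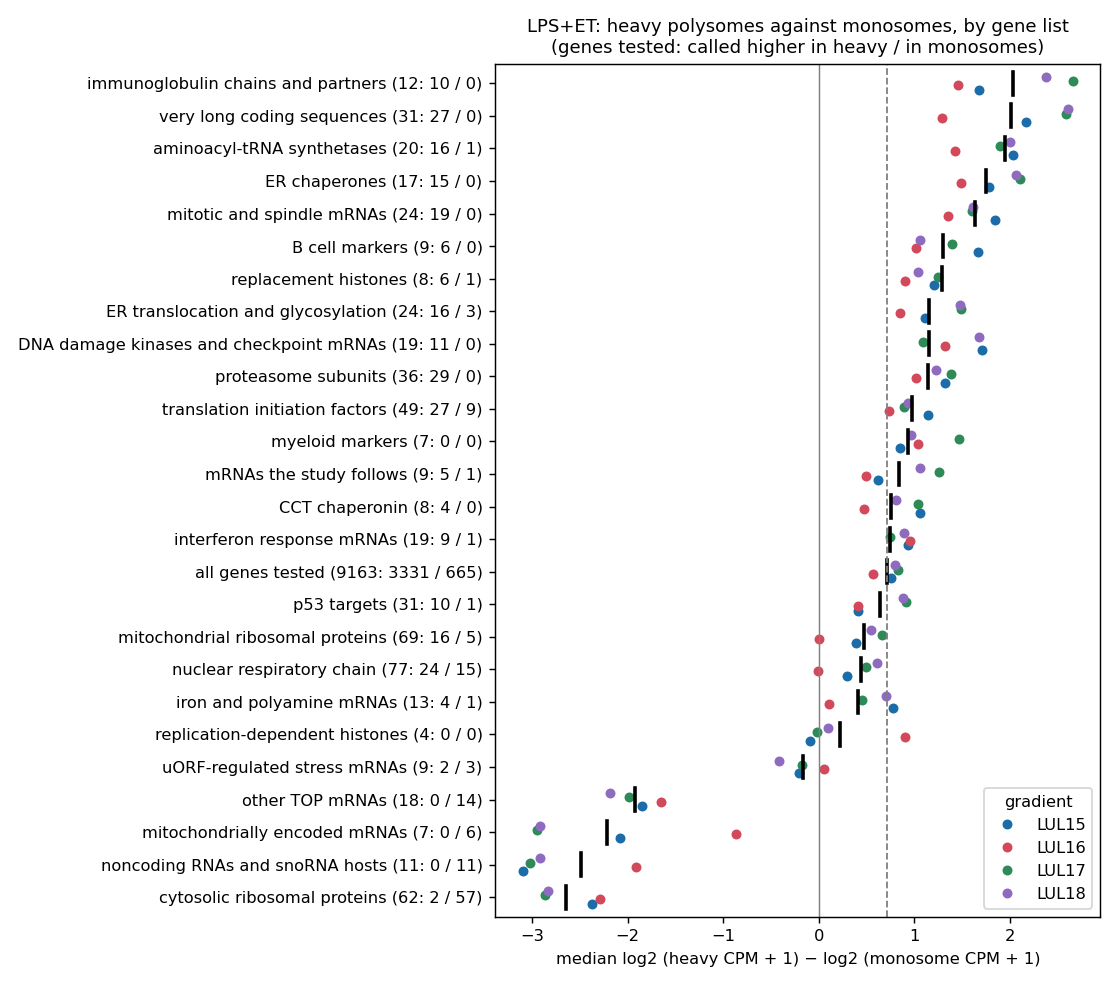
Median log2 ratio of heavy over monosome CPM (x axis) of each gene list with at least 4 tested members (y axis), as a point for each gradient and a black bar for the median of the mean ratios. The dashed line is the median of all 9163 genes (0.71). Ribosomal proteins lie farthest left (−2.64) and immunoglobulins farthest right (2.03), and LUL16 (red) is often nearest to 0. The immunoglobulin list includes switched heavy chains that passed the 5 CPM minimum through their heavy polysome values.

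The mRNAs of the cytosolic ribosome made up the largest of the monosome groups. Of 62 ribosomal protein genes tested, 57 were higher in monosomes and 2 in heavy polysomes (59 and 0 after centring), with a median of −2.64 against 0.71 for all genes. The gradient medians were −2.37, −2.29, −2.87 and −2.83 in LUL15 to LUL18, and without LUL16 the counts were 57 and 3. Their tags took 18.4% ± 0.832 (SD, n = 4) of a monosome library and 2.38% ± 0.632 of a heavy library. They took 5.55% of a light polysome library (fractions 8 to 10), and their share peaked in fraction 5. Rps20 alone held 79880 of the list's 183920 CPM in monosomes and 7006 of 23788 CPM in heavy polysomes (means). These shares are thus not spread evenly over the list. Ribosomal protein genes have many near-identical pseudogene copies, so the split of tags between a gene and its copies is uncertain.

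Rps20, a protein of the small subunit (chr4:3831334-3835665, GRCm38, minus strand, tags counted in the UTR), was the most abundant member. It stood at 90995, 74715, 84871 and 68941 CPM in the monosomes of LUL15 to LUL18 and at 8674, 9455, 5430 and 4466 CPM in the heavy polysomes. The classes did not overlap, and the ratio was −3.57 ± 0.24 (SE; limma adjusted p = 1.4e-06). Rpl39, the smallest protein of the large subunit in the list (chrX:37082520-37085402, UTR), had the lowest ratio of all genes tested, −3.86 ± 0.25 (limma adjusted p = 1.2e-06), with 2630, 2564, 3190 and 2632 CPM in monosomes and 203, 355, 134 and 129 CPM in heavy polysomes. Rps15a (−3.56), Rps28 (−3.34), Rpl32 (−3.31), Rpl37 (−3.27) and Rpl34 (−3.26) followed, and Rpl4, at a ratio of −2.34, was the second most abundant member. In each of these the classes were apart in all 4 gradients.

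A few members departed from the rest. Rps4y2 had the highest ratio of the list, 1.50 (limma adjusted p = 0.0215, edgeR adjusted p = 0.00931), at 1.80 to 5.91 CPM in monosomes, and was higher in heavy polysomes in all 4 gradients. Rpl7l1, a paralog of Rpl7, was higher in heavy polysomes (1.21 ± 0.24, limma adjusted p = 0.0012), but not after centring or without LUL15 or LUL18 (limma adjusted p = 0.0117 and 0.0111). The other heavy call, Rpl24 (1.06, limma adjusted p = 0.0105 without LUL18), was counted at the end of a transcript whose reading frame is 1050 residues long, and its value is not read as that of the ribosomal protein mRNA. Rpl5 had a ratio of −0.83 and Rps13 of −1.84, and neither passed the test with the main scaling.

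The 5′ ends of some of these mRNAs are shown because a pyrimidine tract that begins with C at the first transcribed base defines the TOP class. The sequences are RefSeq promoter entries on GRCm38.p6, 10 bases before to 20 bases after the annotated start on the strand of the gene, for the 5 lowest ribosomal protein mRNAs and the 2 lowest other TOP mRNAs that had an entry, and for a pair of the highest heavy mRNAs. Capitals mark a C followed by at least 4 bases that are each C or T, where the run begins within 5 bases of the start.
Rps15a, chr7:118116128-118116157, minus strand: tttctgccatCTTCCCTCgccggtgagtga
Rpl37, chr15:5116603-5116632, plus strand: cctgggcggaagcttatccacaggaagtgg
Rpl34, chr3:130730379-130730408, minus strand: tccctgacgtaCTTCCTgtccggcgccgtc
Rpl39, chrX:37085203-37085232, minus strand: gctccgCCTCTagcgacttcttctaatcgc
Rps28, chr17:33824543-33824572, minus strand: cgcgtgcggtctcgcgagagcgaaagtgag
Ybx1, chr4:119294494-119294523, minus strand: ccgcccgtcccgccattctcgctagttcga
Tpt1, chr14:75845246-75845275, plus strand: cgctgacgacagttccgggggagccgcgga
Tln1, chr4:43562564-43562593, minus strand: agttctctccaactcggaagtggctcctgg
Cad, chr5:31054770-31054799, plus strand: gcgccgtcgcagtcgtgcttcagctcacta
The Rps15a run begins at the annotated start itself, that of Rpl34 at base 2, and that of Rpl39 4 bases before the start. The windows of Rps28, Rpl37, Ybx1, Tpt1, Tln1 and Cad hold none that begins within 5 bases of the start, though that of Tln1 holds unmarked runs farther away. Over the 27025 promoters of the table, 2.49% had such a run at the start and 18.46% within 5 bases of it, on the gene's own strand. Only 48 of 62 ribosomal protein genes and 11 of 18 other TOP genes had an entry (77.4% for the former), so no share is given for these lists. A match or its lack describes these letters only.

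The other TOP mRNAs behaved like the ribosomal proteins at a smaller size. Of 18 tested, 14 were higher in monosomes and 0 in heavy polysomes (17 and 0 after centring), and the median was −1.92, with gradient medians of −1.85, −1.65, −1.98 and −2.18. Eef1b2, a subunit of the elongation factor 1 exchange complex, fell from 5046, 4244, 5805 and 6617 CPM in monosomes to 1038, 878, 934 and 806 CPM in heavy polysomes (−2.56, limma adjusted p = 1.6e-06). Eef2, the translocase of elongation (chr10:81176631-81182507, UTR), was the most abundant member and less displaced: 10417, 15123, 11144 and 9013 CPM against 5337, 5181, 4028 and 3344 CPM, a ratio of −1.35 ± 0.19 (limma adjusted p = 1.2e-04). Its coding length of 858 residues is long for the list, whose median is 356.5, and its peak lay in fraction 7. Its mean level fell to 3312 CPM in fraction 13 and rose again to 6380 CPM in fraction 15. Rps20 and mt-Nd1 (given below) also rose, from 3595 and 2709 CPM in fraction 13 to 10808 and 7208 CPM in fraction 16. Such rises enter the heavy values of these light-side RNAs, and their cause was not tested. Ybx1, an mRNA-packaging cold shock protein (−3.04), Tpt1, the translationally controlled tumor protein (−2.90), and Npm1, the nucleolar histone chaperone (−1.03), were also higher in monosomes. Eef1a1, which gives the aminoacyl-tRNA to the ribosome, had a low count (3.57 to 16.3 CPM in monosomes) and a ratio of −1.93 with a limma adjusted p of 0.016.

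The initiation factors split between the classes. Of 49 tested, 27 (55.1%) were higher in heavy polysomes and 9 (18.4%) in monosomes, against 36.4% and 7.26% of all genes. The median was 0.97, and after centring 13 and 14 were called. Eif5b, which joins the subunits (43.4, 55.4, 22.1 and 61.3 CPM in monosomes, 388, 326, 454 and 570 in heavy polysomes), had the highest ratio, 3.29 ± 0.25 (limma adjusted p = 2e-06). The scaffold Eif4g1 (3.13) and the largest eIF3 subunit, Eif3a (2.94), were close to it. Within the eIF3 complex the members thus lay apart. Eif3a, Eif3b (1.87), Eif3c (1.50) and Eif3d (0.87, not called after centring) were higher in heavy polysomes. Eif3f (−2.61), Eif3h (−2.16), Eif3e (−1.63), Eif3k (−1.59), Eif3l (−0.74) and Eif3i (−0.72) were higher in monosomes, and 4 of these 6, Eif3e, Eif3f, Eif3h and Eif3k, are also in the TOP list. Without LUL15 the monosome calls numbered 5 and without LUL18 4, and the calls of Eif3d, Eif3l and Eif3i were lost without LUL15 (limma adjusted p = 0.0138, 0.0205 and 0.0114). Eif3l was not called without any other gradient either, nor Eif3i without LUL17 or LUL18 (highest limma adjusted p 0.0353 and 0.0243). Eif3f stood at 884, 963, 788 and 886 CPM in monosomes against 179, 154, 122 and 123 CPM in heavy polysomes, with no overlap.

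The aminoacyl-tRNA synthetases, which load tRNAs with amino acids, lay on the heavy side. Of 20, 16 were higher in heavy polysomes and 1 in monosomes (13 and 2 after centring), with a median of 1.95. Nars, the asparagine enzyme and the most abundant, rose from 519, 731, 441 and 468 CPM to 2350, 3114, 1742 and 2154 CPM (2.11 ± 0.15, limma adjusted p = 1.6e-06). Rars, for arginine, had the highest ratio (2.61) and Mars, for methionine, 2.34. The exception was Qars, for glutamine, at 378, 424, 208 and 253 CPM in monosomes and 280, 176, 136 and 163 CPM in heavy polysomes, a ratio of −0.73 ± 0.18 (limma adjusted p = 0.0046) with overlapping classes across gradients. The Qars call was lost without LUL15, LUL17 or LUL18 (highest limma adjusted p 0.0192).

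**Figure D2:**
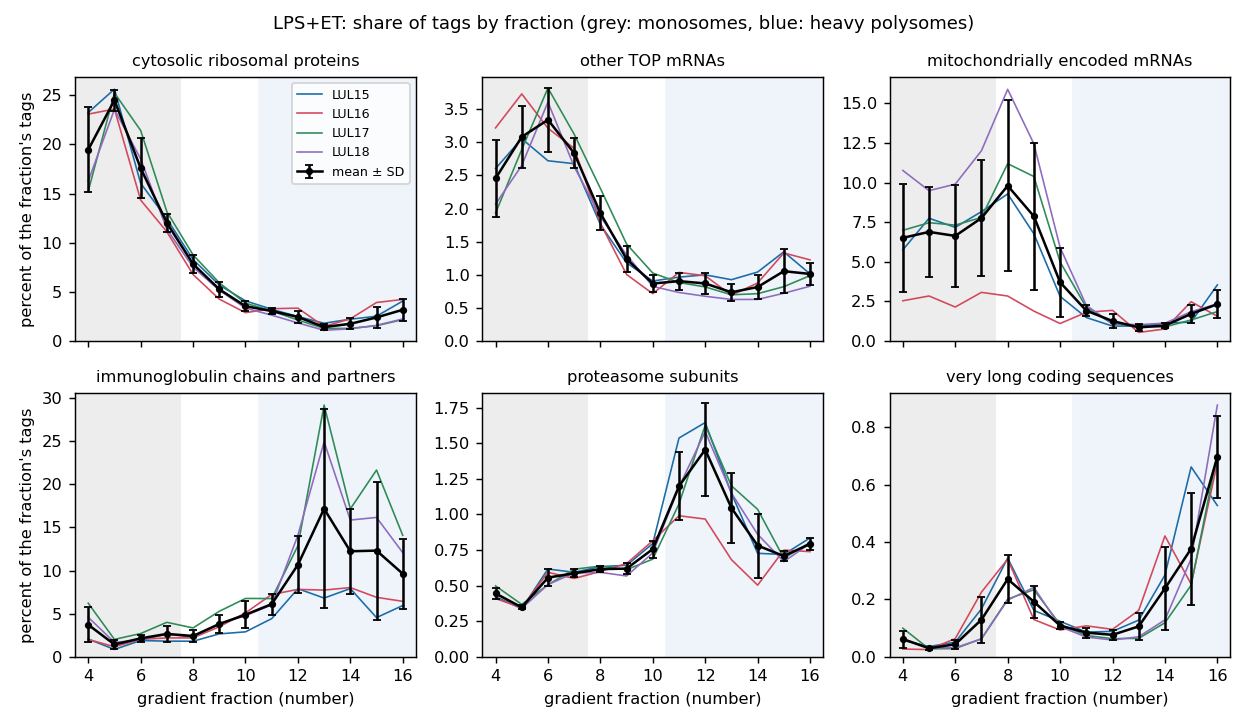
Share of each library's tags (y axis, percent) in 6 gene lists against gradient fraction (x axis, 4 to 16), with a colored line for each gradient and the mean ± SD of the 4 gradients in black; grey marks monosomes and blue marks heavy polysomes. Ribosomal proteins peak in fraction 5 (24.5%), immunoglobulins in fraction 13 (17.2%) and the very long coding sequences in fraction 16 (0.697%). At these peaks Rps20 alone stood at 119410 CPM and Igkc alone at 145480 CPM.

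Transcripts of the mitochondrial genome, which are translated by mitochondrial ribosomes, were also on the light side. Of 7 tested, 6 were higher in monosomes and 0 in heavy polysomes (6 and 0 after centring), with a median of −2.22. Here LUL16 differed most: its median was −0.86, against −2.08, −2.95 and −2.92 in LUL15, LUL17 and LUL18. mt-Nd1, a complex I subunit (chrMT:2751-3705), stood at 29919, 13884, 35557 and 51701 CPM in monosomes and at 4580, 4496, 4478 and 4478 CPM in heavy polysomes (−2.71 ± 0.28, limma adjusted p = 1.6e-05). The heavy values were almost level and the low ratio in LUL16 came with the lowest monosome value. Together these mRNAs took 6.95% ± 3.25 (SD, n = 4) of monosome tags, 7.13% of light polysome tags and 1.51% ± 0.102 of heavy tags, and their mean share peaked in fraction 8 (9.80%). The entries of mt-Rnr2, the large mitochondrial ribosomal RNA (−3.62), and mt-Tl1, a leucine tRNA (−3.68), were among the 12 lowest genes that the naming rule gave. mt-Rnr2 was counted 863 bases from its end. mt-Tl1 was counted at its first base (chrMT:2676), 74 bases from its own end and next to the last base of mt-Rnr2 (2675). Its value is therefore not read as that of the tRNA.

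The nuclear genes for mitochondrial proteins had no common side. Among 69 mitochondrial ribosomal proteins, 16 (23.2%) were higher in heavy polysomes and 5 (7.25%) in monosomes (1 and 19 after centring), against 36.4% and 7.26% of all genes. The median of 0.48 turned to −0.26 after centring. Without LUL16 the heavy calls numbered 25, without LUL15 7 and without LUL18 10. Among 77 respiratory chain genes, 24 (31.2%) were higher in heavy polysomes and 15 (19.5%) in monosomes (10 and 26 after centring). The median of 0.44 turned to −0.30, and the monosome calls numbered 8 without LUL15 and 9 without LUL18, where the heavy calls numbered 15. The respiratory list ran from Sdha, the flavoprotein of complex II (2.71 ± 0.18; 40.5, 49.3, 41.5 and 26.5 CPM in monosomes, 278, 310, 218 and 232 CPM in heavy polysomes), and Ndufs1 of complex I (2.41) down to Cox7c (−2.19, limma adjusted p = 0.0172 without LUL15) and Cox7a2l, a supercomplex factor (−2.44 ± 0.16). Cox7a2l stood at 964, 890, 1068 and 953 CPM in monosomes and at 171, 202, 193 and 150 CPM in heavy polysomes. The pair at the top encodes proteins of 664 and 727 residues, and the pair at the bottom proteins of 63 and 111.

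Transcripts listed or annotated as noncoding were higher in monosomes more often than all genes tested, and their translation was not measured. All 11 listed noncoding RNAs and snoRNA host transcripts were higher there on both scales, with a median of −2.49 and gradient medians of −3.10, −1.91, −3.03 and −2.92. Without LUL15 7 of them were called, with Malat1 and Pvt1 among those lost (limma adjusted p = 0.0128 and 0.0209). Gas5, a snoRNA host that carries a TOP tract, stood at 2638, 2188, 3145 and 2604 CPM in monosomes and 307, 520, 322 and 246 CPM in heavy polysomes (−2.96 ± 0.22, limma adjusted p = 1.7e-06). Snhg3 had the lowest ratio (−3.26) and Pvt1 the highest (−1.64), and the nuclear transcripts Neat1 (−2.96) and Malat1 (−1.93) were detected in these cytoplasmic extracts at 49.0 to 116 and 35.2 to 136 CPM in monosomes. By annotation, 110 of 253 pseudogenes, 35 of 92 lincRNAs and 20 of 51 processed transcripts tested were higher in monosomes (7.26% over all genes), with medians of −0.99, −1.17 and −1.14. Pseudogene tags can come from the parent mRNA, and pseudogenes took 11.4% of monosome tags and 2.85% of heavy tags.

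Immunoglobulin mRNAs took a larger share of heavy than of monosome tags. The list took 2.48% ± 0.949 (SD, n = 4) of monosome tags and 11.4% ± 5.34 of heavy tags (6.26%, 7.36%, 17.0% and 14.9% in LUL15 to LUL18), and 10 of its 12 tested members were higher in heavy polysomes and 0 in monosomes (8 and 1 after centring), with a median of 2.03. Igkc, given below, held most of the list's heavy tags in every gradient. The gradient medians were 1.68, 1.46, 2.66 and 2.38. These counts and medians include switched heavy chains that passed the 5 CPM minimum through their heavy polysome values, so the direction of those members is no support. Ighm, the µ heavy chain (chr12:113418950-113422730, minus strand, UTR), stood at 2692, 3253, 4599 and 2881 CPM in monosomes and at 21216, 21793, 46357 and 38337 CPM in heavy polysomes (3.20 ± 0.22, limma adjusted p = 1.4e-06). Igkc, the κ light chain constant region (chr6:70726435-70726757), was the most abundant heavy mRNA of the list: 12491, 13703, 31004 and 22891 CPM against 38368, 49041, 118200 and 106230 CPM (1.90 ± 0.23, limma adjusted p = 5e-05). The levels of both chains in heavy polysomes were lower in LUL15 and LUL16 than in LUL17 and LUL18, yet the classes did not overlap. The mean level of Ighm peaked in fraction 15 and that of the shorter Igkc in fraction 13, each 1 fraction earlier in LUL15 and LUL16.

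Switched heavy chains were below the 5 CPM minimum in monosomes on average and passed it through their heavy polysome values, so their ratios are given as a description. Ighg2c (chr12:113285325-113288930) had a ratio of 4.16, with 3.73, 3.29, 2.39 and 1.77 CPM in monosomes and 55.2, 34.8, 96.8 and 97.2 CPM in heavy polysomes. Its monosome values rested on 3 to 6 tags in each gradient, against 191 to 708 in heavy polysomes. Igha had 3.21 and Ighg1, counted at an intronic site, 3.02. Igj, the joining chain of secreted polymers (2.11), and Cd79a, a signaling partner of the membrane receptor (2.13), were also higher in heavy polysomes, whereas Cd79b, the other signaling partner, had a ratio of 0.44 (limma adjusted p = 0.025) and Vpreb3, a surrogate light chain partner, of −0.06.

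Of 17 ER chaperones and foldases, 15 were higher in heavy polysomes and 0 in monosomes (9 and 0 after centring), with a median of 1.75. Hsp90b1, the ER Hsp90, had the highest ratio (3.48 ± 0.23; 13.6, 16.7, 1.65 and 10.1 CPM in monosomes, 181, 154, 36.7 and 108 CPM in heavy polysomes). Hspa5, the ER Hsp70 (3.28), and the disulfide isomerases Pdia4 (3.08) and Pdia6 (3.00) followed. Calr, a lectin chaperone, stood at 506, 424, 469 and 348 CPM against 1742, 1321, 1346 and 1464 CPM (1.75 ± 0.16). Manf, a short ER protein (0.52), and Dnajb9, a co-chaperone (0.23), were the members that did not pass. The profile of Manf reached its highest value in fraction 10, at 4066 CPM, which neither class covers.

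Of 24 translocation and glycosylation genes, 16 were higher in heavy polysomes and 3 in monosomes (10 and 5 after centring, 13 and 1 without LUL15). Stt3a, the catalytic subunit of the oligosaccharyltransferase (2.55 ± 0.20), and its partner Rpn1 (2.49) were highest. Ost4, its 37-residue subunit, was lowest, at 133, 216, 168 and 194 CPM in monosomes and 33.99, 175, 66.8 and 50.0 CPM in heavy polysomes (−1.37 ± 0.26, limma adjusted p = 0.00095). The LUL16 heavy value of Ost4 lay within the range of the monosomes, and the call was lost without LUL15 (limma adjusted p = 0.0135). Serp1, a short translocon-associated protein, was higher in heavy polysomes (1.32), though not after centring, with a peak in fraction 11.

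Most proteasome subunit mRNAs lay on the heavy side. Of 36 genes, 29 were higher in heavy polysomes and 0 in monosomes (14 and 1 after centring), with a median of 1.15. The heavy calls numbered 20 without LUL15 and 22 without LUL18. Their share of tags was 0.484% in monosomes and 0.997% in heavy polysomes, and its mean peaked in fraction 12. Psmd2, a base subunit of the regulatory particle, had the highest ratio (2.38 ± 0.26). Psmb8, the inducible catalytic subunit of the immunoproteasome, stood at 457, 555, 524 and 481 CPM against 894, 1060, 1056 and 1053 CPM (1.01 ± 0.15, limma adjusted p = 0.00018), though it was not called after centring. Psmb1, a core subunit, was the lowest at −0.08. In the CCT chaperonin, a ring of 8 subunits, 4 subunits (50% against 36.4% of all genes) were higher in heavy polysomes and 0 in monosomes (3 and 2 after centring). The median was 0.75 against 0.71 for all genes. Cct3 had a ratio of 1.68 and Tcp1, which passed only after centring and in the monosome direction, of −0.63.

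Most mitotic mRNAs were higher in heavy polysomes. Of 24 mitotic and spindle genes, 19 were higher in heavy polysomes and 0 in monosomes (10 and 2 after centring), with a median of 1.63. Top2a, topoisomerase IIα and the target of etoposide (chr11:98992943-99024189, minus strand, UTR), stood at 684, 820, 598 and 543 CPM in monosomes and at 7157, 5249, 4580 and 6555 CPM in heavy polysomes (3.15 ± 0.19, limma adjusted p = 9.2e-07). Its level peaked in fractions 15, 14, 16 and 16 in LUL15 to LUL18. Kif20a, a cytokinesis kinesin (2.66), was next, Pttg1, the securin, had 1.27 (not called after centring), and the short Ube2c (−0.24) and Cenpa (−0.23) did not pass with the main scaling. The replication factors Mcm4, a helicase subunit (3.57), and Rrm1, the large subunit of ribonucleotide reductase (3.37), and Cad, which starts pyrimidine synthesis (3.65), were among the 12 highest genes. Cad stood at 234, 179, 197 and 200 CPM in monosomes and 1770, 1871, 3019 and 4199 CPM in heavy polysomes.

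The DNA damage response mRNAs were led by Trp53 itself. Of 19 kinases, sensors and checkpoint genes, 11 (57.9%, against 36.4% of all genes) were higher in heavy polysomes and 0 in monosomes. The median was 1.15, and the counts were 5 and 1 after centring and 7 and 0 without LUL15. Trp53, the p53 transcription factor (chr11:69580359-69591873, plus strand, UTR), stood at 69.5, 128, 48.6 and 94.2 CPM in the monosomes of LUL15 to LUL18 and at 513, 550, 439 and 545 CPM in the heavy polysomes. The means were 85.0 ± 34.02 and 512 ± 51.3 CPM (SD, n = 4), the classes were far apart in every gradient, and the ratio was 2.66 ± 0.19 (limma adjusted p = 1.7e-06). Its mean level peaked at 1058 CPM in fraction 13 (fraction 14 in LUL17 and LUL18). Rad50, of the break-binding complex (2.54), Brca1, of homologous recombination (2.21), and Topbp1, an activator of ATR (2.19), had the next highest ratios. Atm (1.43) was not called after centring or without LUL15 (limma adjusted p = 0.0126). Atr had 0.77 and Mdm4, an inhibitor of p53, −0.85, a value that passed only after centring and in the monosome direction.

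p53 target mRNAs lay around the median gene. Of 31 tested, 10 (32.3%) were higher in heavy polysomes and 1 (3.23%) in monosomes, against 36.4% and 7.26% of all genes. The median of 0.64 turned to −0.10 after centring, where 2 and 6 were called. The 10 heavy calls became 4 without LUL18 and 6 without LUL17. Ephx1, an epoxide hydrolase (46.0, 62.5, 28.7 and 74.6 CPM in monosomes, 191, 327, 274 and 327 CPM in heavy polysomes), had 2.43, and Apaf1, the scaffold of the apoptosome, 2.06. Gpx1, a glutathione peroxidase, was higher in monosomes (−1.11 ± 0.19, limma adjusted p = 0.00048). Mdm2, the ubiquitin ligase of p53, stood at 480, 298, 297 and 307 CPM against 386, 250, 455 and 400 CPM, with overlapping classes and a ratio of 0.11. Bax, a pore-forming death factor, had −0.51 and Ccng1, cyclin G1, −0.59, and both passed only after centring, in the monosome direction.

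Among the 9 mRNAs that the study followed, 5 (55.6%) were higher in heavy polysomes and 1 (11.1%) in monosomes (4 and 1 after centring). Over all genes the shares were 36.4% and 7.26%, and these 9 mRNAs are few. Some of the 9, Trp53 and Hif1a among these, were picked by the study on the same libraries, so their direction is not independent evidence. After Trp53, H2-K1, a class I histocompatibility chain, stood at 943, 1438, 584 and 701 CPM against 3760, 3989, 3053 and 3258 CPM (2.02 ± 0.18, limma adjusted p = 6.7e-06). Ccnd2, cyclin D2, stood at 83.5, 77.4, 170 and 147 CPM against 401, 274, 450 and 289 CPM (1.61 ± 0.21). Hif1a, the hypoxia factor, stood at 252, 103, 160 and 110 CPM against 563, 270, 384 and 321 CPM (1.33 ± 0.16). In all of these the classes did not overlap.

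Cdkn1a, the cell cycle inhibitor p21 (chr17:29090979-29100722), stood at 424, 394, 316 and 431 CPM in monosomes and at 654, 525, 757 and 915 CPM in heavy polysomes. The values did not overlap and the ratio was 0.84 ± 0.18 (limma adjusted p = 0.002). The call was lost after centring, by edgeR and without LUL15, LUL17 or LUL18 (limma adjusted p = 0.011, 0.0169 and 0.0184). Tial1, an RNA-binding protein of stress granules, had 0.63 (limma adjusted p = 0.031), its paralog Tia1 0.03, and Gadd45a, a damage-induced stress protein, 0.12 at only 1.28 to 10.4 CPM in monosomes. Pabpc1, the poly(A)-binding protein and a TOP mRNA, stood at 259, 226, 291 and 243 CPM in monosomes and 75.3, 56.9, 59.1 and 41.9 CPM in heavy polysomes (−2.13 ± 0.18, limma adjusted p = 4.3e-06).

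**Figure D3:**
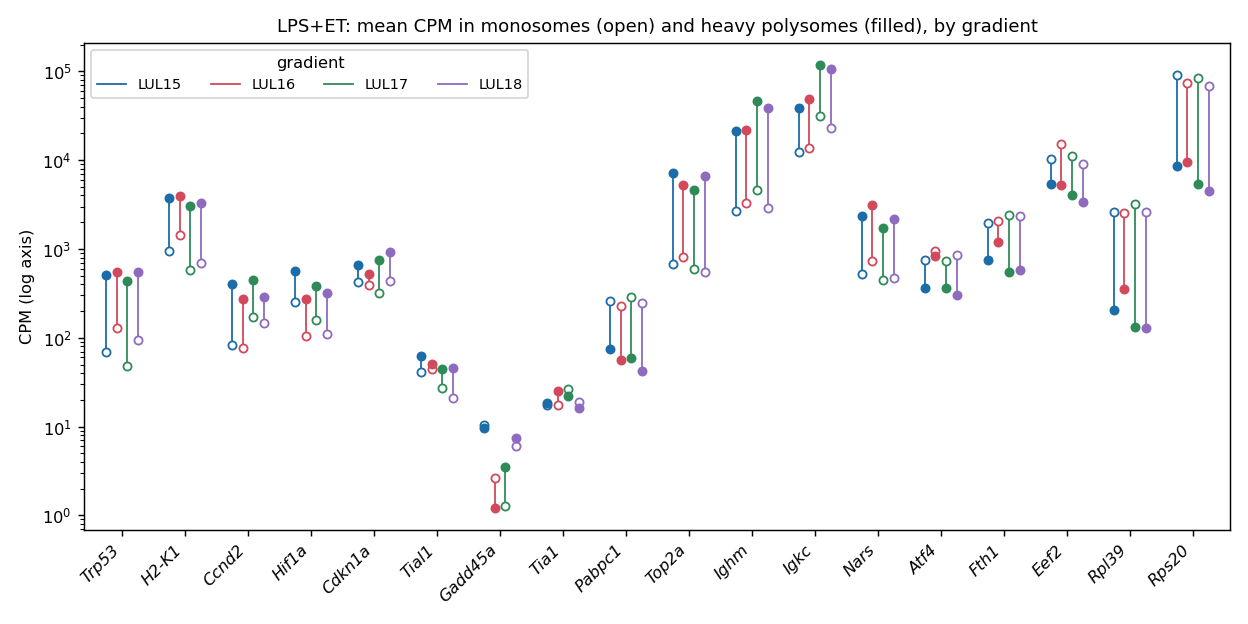
Mean CPM of 18 mRNAs (x axis) in monosomes (open circles) and heavy polysomes (filled circles) of each gradient, joined by a line in the color of the gradient, on a log axis. Trp53 lies between 48.6 and 128 CPM in monosomes and between 439 and 550 CPM in heavy polysomes, whereas Rps20 lies between 68941 and 90995 CPM in monosomes and between 4466 and 9455 CPM in heavy polysomes.

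Stress mRNAs with upstream reading frames in their 5′ leaders were divided. Of 9, 3 (33.3%) were higher in monosomes and 2 (22.2%) in heavy polysomes, against 7.26% and 36.4% of all genes. The median was −0.16, and the counts after centring were 5 and 2. Without LUL15, LUL17 or LUL18 1 was higher in monosomes. Atf4, the effector of the integrated stress response (chr15:80255184-80257540), stood at 746, 943, 739 and 847 CPM in monosomes and at 360, 840, 362 and 305 CPM in heavy polysomes. LUL16 again stood apart, its heavy value reaching the level of the monosomes, and the ratio was −0.93 ± 0.20 (limma adjusted p = 0.0025). The Atf4 call was lost without LUL15, LUL17 or LUL18 (limma adjusted p = 0.0236, 0.0113 and 0.0245). Ddit3, the factor downstream of Atf4, had −1.51 and Ppp1r15a, which reverses the stress signal, −1.12 (lost without the same gradients, highest limma adjusted p 0.0538). Eprs, also a tRNA synthetase (1.86), and Ibtk (1.99) were higher in heavy polysomes.

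Iron and polyamine mRNAs were called about as often as all genes. Fth1, the ferritin heavy chain, stood at 1967, 2068, 2403 and 2330 CPM in monosomes and 745, 1192, 550 and 582 CPM in heavy polysomes (−1.58 ± 0.22, limma adjusted p = 1.1e-04). Tfrc, the transferrin receptor, stood at 132, 170, 94.8 and 109 CPM against 793, 460, 656 and 664 CPM (2.35 ± 0.22, limma adjusted p = 7.9e-06). The iron regulatory proteins Aco1 (1.98) and Ireb2 (1.30, not called after centring) were on the heavy side. The polyamine genes Odc1 (0.42), Srm (0.46) and Oaz1 (0.00) did not pass. Over the 13 genes, 4 (30.8%) were heavy and 1 (7.69%) monosome, against 36.4% and 7.26% of all genes (2 and 1 after centring), and the median of 0.42 turned to −0.32 after centring.

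The median of the interferon response mRNAs was close to that of all genes. Of 19, 9 (47.4%) were higher in heavy polysomes and 1 (5.26%), Irf7, in monosomes (5 and 2 after centring), with a median of 0.75 against 0.71 (−0.03 with TMM scaling). Irf7, a transcription factor of the pathway (chr7:141262706-141266481, minus strand, UTR), stood at 239, 193, 152 and 139 CPM in monosomes and at 38.9, 21.99, 24.9 and 24.2 CPM in heavy polysomes (−2.67 ± 0.19, limma adjusted p = 1.6e-06). Its level was highest in fraction 4, at 313 CPM, and its coding length is 457 residues (median of all genes tested 453). The helicase sensor Ddx58 (2.19) and the transcription factor Stat2 (1.77) were on the heavy side.

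Histone mRNAs were mostly outside the test. Of 50 replication-dependent histones, whose mRNAs lack a poly(A) tail, only 4 reached 5 CPM, and their median of 0.23 turned to −0.51 after centring. Of 8 replacement variants, 6 (75%) were higher in heavy polysomes and 1 (12.5%) in monosomes, against 36.4% and 7.26% of all genes. The counts were 2 and 1 after centring and 3 and 1 without LUL15. Ratios ran from H2afz (1.94) to H2afj (−1.28).

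Coding length went with the ratio across the transcriptome. Of 189 genes with fewer than 100 residues, 12.2% were higher in heavy polysomes and 25.9% in monosomes, and of 407 genes with 1600 residues or more, 58.2% and 1.72%. The medians over the 6 length bins were −0.23, 0.34, 0.64, 0.82, 1.12 and 1.42, from short to long. Across 8589 genes, Spearman's rho of coding length with the ratio was 0.322, 0.296, 0.179 and 0.229 in LUL15 to LUL18, and 0.461 with the mean fraction number of a gene's tags. Without ribosomal protein and mitochondrially encoded genes (8521 genes) the values were 0.311, 0.285, 0.166 and 0.217. These are descriptions across genes of the same libraries, and genes are not independent replicates.

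The giant mRNAs were heavy throughout: of 31 in the list of very long coding sequences, 27 were called in heavy polysomes and 0 in monosomes (15 and 0 after centring), with a median of 2.01 and gradient medians of 2.17, 1.29, 2.59 and 2.61. Birc6, a giant inhibitor of apoptosis (4873 residues), had 3.29, Huwe1, a ubiquitin ligase, 2.54, Dync1h1, the dynein heavy chain, 2.40 and Usp34, a deubiquitinase, 0.82. The Usp34 value turned to −0.12 when heavy polysomes were taken from fractions 11 to 13 only, and its call was lost without LUL15 or LUL18 (limma adjusted p = 0.0193 and 0.0192). Tln1, the adaptor talin that links integrins to actin (2541 residues, chr4:43531519-43562691), had the highest ratio of the long genes outside the list, 4.04 ± 0.22 (limma adjusted p = 8.3e-07), with 27.7, 41.1, 7.39 and 22.5 CPM in monosomes and 401, 455, 208 and 462 CPM in heavy polysomes. The mean levels of Tln1 and Cad peaked in fraction 16, the last one studied (Tln1 in fraction 15 of LUL15, Cad in fraction 14 of LUL16).

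**Figure D4:**
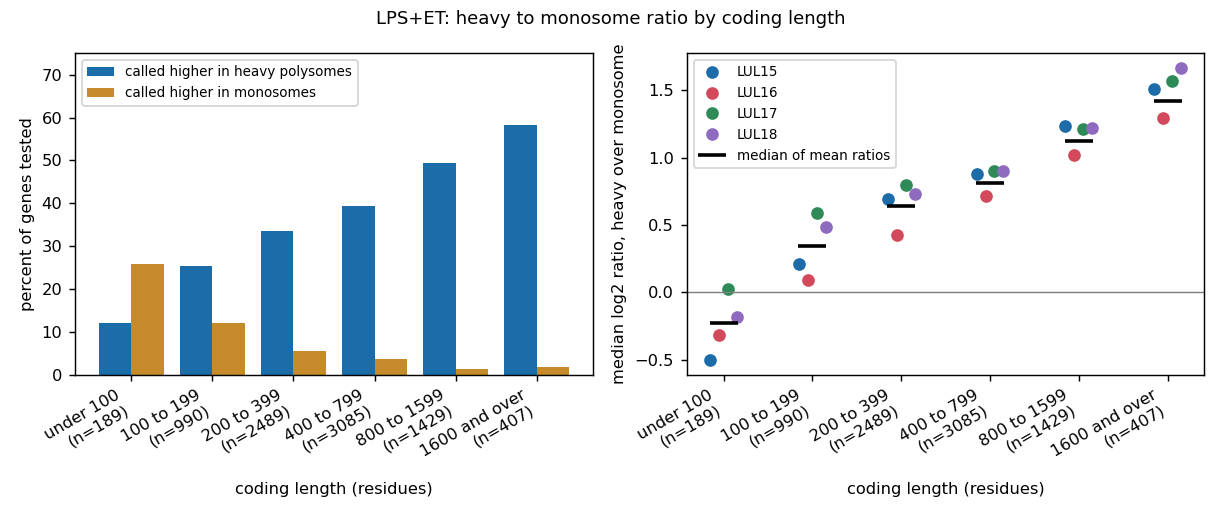
Percent of tested genes called in each direction (left, bars from 0) and median log2 ratio (right, a point for each gradient and a black dash for the mean ratios) against coding length in residues. The share called heavy goes from 12.2% below 100 residues to 58.2% at 1600 or more, and LUL16 has the same order of bins, with the lowest medians of the 4 gradients from 100 residues up.

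Several lists departed from the median of genes of like length. Set against the median of its own length bin, a ribosomal protein gene had a median of −3.04 (60 of 61 below), another TOP mRNA −2.61 (18 of 18 below) and a mitochondrially encoded mRNA −2.86. Aminoacyl-tRNA synthetases (0.95, 16 of 20 above), ER chaperones (0.94, 16 of 17 above), mitotic mRNAs (0.87, 20 of 24 above) and proteasome subunits (0.42, 31 of 36 above) stood above their bins. Mitochondrial ribosomal proteins (−0.01) and p53 targets (−0.001) lay at them, and the stress mRNAs with upstream reading frames lay below (−0.80, 7 of 9 below).

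Short mRNAs could be strongly heavy. Snrpd3, a core spliceosomal protein of 126 residues (2.72), and Prdx1, a peroxidase (2.41), were among the 10 highest below 200 residues. Of the 10 lowest genes with 800 residues or more, 7 were counted at an intronic site. Tmem63c (−3.13), for example, was counted in an intron 9987 bases from the nearest transcript end. Elane, which encodes a neutrophil protease and had the same ratio (−3.13), was counted 769 bases outside the gene. Bach2, a repressor of plasma cell genes (−2.54), was counted 2705 bases from a transcript end. Ranbp6, an import receptor of 1105 residues (−2.15), was counted in the UTR at its transcript's end. Over all genes, 40.4% of the 7266 counted in a UTR and 9.55% of the 597 counted in an intron were called heavy and 4.79% and 7.71% monosome (7.26% over all genes), with medians of 0.81 and 0.11.

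The same ratio was formed in the other treatments to see where the etoposide pattern was particular. Across 9152 genes, limma on the 12 gradients called 107 ratios (1.17%) that differed between LPS+ET and LPS, 36 higher (0.393%) and 71 lower (0.776%) after etoposide, of 2004 at an unadjusted p under 0.05. edgeR called 313 (3.42%), 151 higher (1.65%) and 162 lower (1.77%). No ratio was called between LPS+ET+KU and LPS+ET by limma, with 613 at an unadjusted p under 0.05, and edgeR called 3. These comparisons share the LPS+ET gradients. When any gradient of LPS or LPS+ET was left out, 15 to 59 ratios were called, with the fewest without LUL15 of LPS and the most without LUL16 of LPS. The separation of the lists was present in the LPS gradients too: the median of the ribosomal proteins was −2.45 in LPS and −2.63 in LPS+ET over the 63 genes tested there, with 0 calls. Other TOP mRNAs had −1.29 and −1.77, immunoglobulins 0.91 and 2.03, myeloid markers 0.14 and 0.93, and p53 targets −0.04 and 0.71. Mitochondrially encoded mRNAs had −3.28 and −2.22, and very long coding sequences 2.63 and 1.99. All of these lists had 0 calls, and the medians of all genes were 0.72 in both. The immunoglobulin and myeloid lists include members that averaged below 5 CPM in the LPS+ET monosomes, so their medians are given as a description.

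The called differences lay in genes of several functions. Serpine2, a secreted protease inhibitor (chr1:79794197-79858696), had ratios of −0.91, 0.09, 0.96 and −0.98 in the LPS gradients and 2.04, 2.38, 2.48 and 2.43 in the LPS+ET gradients, a difference of 2.54 (limma adjusted p = 0.00139). Tomm6, of the mitochondrial import pore (1.56), Pigt, of the GPI transamidase (1.47), and Pml, the scaffold of nuclear bodies (1.13), were also higher, though Pigt was not called without LUL18 of LPS+ET (limma adjusted p = 0.0103) and Pml not without that gradient or LUL15 of LPS (0.0101 and 0.0107). Irf9, a partner of Stat2, differed by 1.15 (limma adjusted p = 0.00347), which was lost without LUL15 of LPS or without LUL17 or LUL18 of LPS+ET (highest limma adjusted p 0.0145). Ldha, lactate dehydrogenase A (chr7:46841475-46855627), went the other way, with 2.39, 2.14, 2.25 and 2.89 in LPS and 0.97, 0.32, 0.32 and 0.32 in LPS+ET (−1.93, limma adjusted p = 0.000346). Zfp146 (−2.03) and the processed pseudogenes Gm12671 (−2.70), Gm3222 (−2.42) and Gm4609 (−2.02) were lower too. The chaperone Hspa8 (−1.49) and the survival factor Bcl2 (−1.80) were further calls on the lower side, each lost without any of 4 gradients (highest limma adjusted p 0.0257 and 0.015).

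Trp53 lay near the threshold. Its ratio was 1.34, 1.66, 1.39 and 1.73 in LPS and 2.87, 2.10, 3.15 and 2.52 in LPS+ET, with no overlap and a difference of 1.13 ± 0.24 (limma adjusted p = 0.0124). By edgeR the adjusted p was 0.00342. In LPS+ET+KU the ratio was 2.84, 2.48, 2.00 and 2.52, within the LPS+ET range but for LUL17. Cdkn1a had −1.26, −0.32, 0.79 and −1.81 in LPS and 0.62, 0.41, 1.26 and 1.08 in LPS+ET, which overlap (1.50 ± 0.40, limma adjusted p = 0.0399). H2-K1 (1.56 and 2.02), Hif1a (1.43 and 1.33) and Ccnd2 (2.28 and 1.61) had no called difference.

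**Figure D5:**
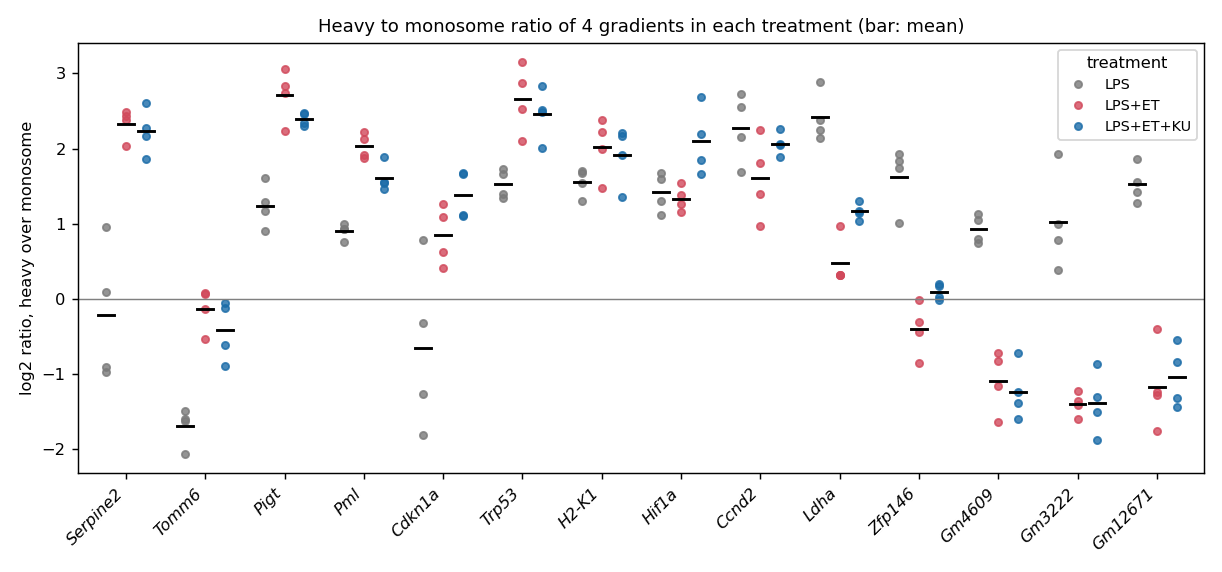
Log2 ratio of heavy over monosome CPM (y axis) of 14 genes (x axis) in the 4 gradients of LPS (grey), LPS+ET (red) and LPS+ET+KU (blue), with a bar at the mean. Serpine2 goes from −0.21 in LPS to 2.33 in LPS+ET and Ldha from 2.42 to 0.48, and Trp53 from 1.53 to 2.66.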

How the data were processed

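Cytoplasmic extracts of LPS-activated B cells were run on sucrose gradients, and each fraction was sequenced from mRNA 3′ ends. The authors deposited a table of raw counts, whole numbers per gene and library (157 libraries, 19600 genes); the submitters' processing notes name TopHat2 2.0.12, HTSeq and DESeq2 1.6.3 with GRCm38 (mm10). Of the columns, 79 matched 1 sample and 78 a group. Etoposide libraries without KU55933 were scaled to CPM, averaged within gradient over fractions 4 to 7 and 11 to 16, and compared as log2(CPM + 1) with limma 3.58.1 (R 4.3.3; eBayes with trend, gradient as block, mean of at least 5 CPM, Benjamini-Hochberg, adjusted p under 0.01, two-sided). Summed counts were tested with edgeR 4.0.16 and DESeq2 1.42.0 as alternatives, and the scripts were tested on simulated data. With 4 pairs an exact sign-flip test cannot go below p = 0.125, so none is reported for single genes.

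Within a gradient, deviations of the monosome and heavy values from their class means correlated at 0.176 to 0.306 across genes (different gradients −0.196 to 0.107), and both classes come from the same extract. Ratios were compared between treatments by limma over 12 gradients. GENCODE M21 gave coding lengths and counted sites (19277 genes matched); gene positions are on GRCm38, 1-based.

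Genes were named by rule: the 12 called genes with the largest ratio in each direction with a mean of at least 20 CPM (Gm, Rik and pseudogene names left out, 71 heavy and 138 monosome), the 9 mRNAs of the study, the highest, the lowest and the 2 most abundant members of each list, and the 5 treatment differences in each direction with the smallest unadjusted p by limma at a mean of at least 20 CPM. Some genes that the rule gave are not reported here. Other genes named in the text were chosen after their values were seen. Members and lists were chosen with earlier results of these data known. Alternatives covered scaling, pseudocount, CPM minimum, fraction ranges, shallow libraries, the block and each gradient left out. The low depth of single libraries limits genes near 5 CPM. Read depth per fraction gives counting error only.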

Additional observations from a re-analysis of the deposited data

Results flagged for a closer look

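In 7 of 142 sets of 4 gradient values a single gradient lay far from the other 3, and chance alone gives this in about 1 of 20 sets. In 5 of the 7 that gradient was LUL16. The median of the noncoding RNAs and snoRNA hosts was −1.91 in LUL16 and −3.10 to −2.92 elsewhere. The ratio of mt-Nd4, a complex I subunit, was −0.44 in LUL16 and −2.27 to −2.14 in the others. Tfrc had 1.43 in LUL16 against 2.58 to 2.78, Stt3a 1.92 against 2.69 to 2.81, and Cd74, the invariant chain of class II histocompatibility, 1.02 against 1.66 to 1.71. In LUL17, Mcm4 had 3.31 against 3.64 to 3.68 and Wdfy4, a protein of antigen cross-presentation, 4.62 against 3.07 to 3.16. Wdfy4 stood at 3.08 CPM in the monosomes of LUL17.

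The heavy to monosome ratio differed between LPS+ET and LPS, by limma, in 10 of the named genes. All but Irf9 were named for the low unadjusted p of this difference, so that their number was fixed by the choice. Those higher after etoposide were Serpine2 (2.54, from −0.21 to 2.33), Tomm6 (1.56, from −1.69 to −0.13), Pigt (1.47, from 1.24 to 2.71), Irf9 (1.15, from −0.40 to 0.75) and Pml (1.13, from 0.90 to 2.03). Those lower were Gm12671 (−2.70, from 1.53 to −1.17), Gm3222 (−2.42, from 1.02 to −1.40), Zfp146 (−2.03, from 1.63 to −0.40), Gm4609 (−2.02, from 0.93 to −1.09) and Ldha (−1.93, from 2.42 to 0.48). The largest limma adjusted p among them was 0.00347, for Irf9.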

How the results depend on the processing

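Against 3331 heavy and 665 monosome calls, edgeR gave 2037 and 1610, DESeq2 1681 and 1787, TMM scaling 1247 and 1366, and centring 1290 and 1367; leaving out 1 gradient gave 2151 to 3718 and 425 to 773, and the fit with no replicate block, in which gradients are not paired, 2628 and 488. Of the 36 ratios higher and 71 lower after etoposide than in LPS, the pool as a replicate block gave 103 and 155, edgeR 151 and 162, a minimum of 1 CPM 17 and 41, an adjusted p under 0.05 212 and 288, and leaving out 1 gradient 4 to 27 and 11 to 34; without libraries under 100000 tags 115 were lower. Pools were not taken to pair these ratios, since not every same-pool correlation of deviations was over 0.1: 8 of 12 were (median 0.174, −0.053 to 0.5), against 9 of 36 between pools (median −0.0542). With the block, Trp53 was called (limma adjusted p 0.00908).

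Medians that changed sign were those of all genes (TMM −0.012, centred −0.029), mitochondrial ribosomal proteins (edgeR −0.10, DESeq2 −0.23, TMM −0.29, centred −0.26, heavy fractions 14 to 16 −0.22), the respiratory chain (−0.21, −0.32, −0.31, −0.30 and −0.098 in that order), iron and polyamine mRNAs (edgeR −0.099, DESeq2 −0.22, TMM −0.33, centred −0.32), p53 targets (DESeq2 −0.12, TMM −0.070, centred −0.10), replication-dependent histones (edgeR −0.48, DESeq2 −0.59, TMM −0.49, centred −0.51, fractions 14 to 16 −0.061, without shallow libraries −0.059), and, with TMM, the CCT chaperonin (−0.027) and interferon mRNAs (−0.028). Single genes that changed sign were Mrpl45 (TMM −0.57), Irf9 (TMM −0.028), Usp34 (heavy fractions 11 to 13, −0.12) and Ebf1 (called higher in monosomes by edgeR, −0.98, and DESeq2, −1.08). Of 89 calls among genes that the naming rule gave, 59 were kept in every alternative and 8 were lost without the block. The cause of these changes was not tested. Libraries below 100000 tags limit genes near 5 CPM.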

Other observations

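Between the classes lay the light polysomes (fractions 8 to 10), which the comparison left out, and some groups had their highest share there. Nuclear respiratory chain mRNAs took 3.85% of light polysome tags, against 1.61% of monosome and 1.65% of heavy tags, and peaked in fraction 10 at 4.36%. Mitochondrial ribosomal proteins took 0.777%, against 0.420% and 0.486%, and the ER translocation and glycosylation list took 1.07%, against 0.407% and 0.817%, with a peak of 1.45% in fraction 10. p53 targets took 0.657%, against 0.382% and 0.482%. Serp1 was at 4452 and 4531 CPM in fractions 10 and 11, against 1042 CPM in fraction 4. These are shares of a library's tags, with no test.

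Among B cell surface and regulatory mRNAs, Cd74, the invariant chain, stood at 2408, 4111, 2342 and 2572 CPM in monosomes and 7755, 8350, 7414 and 8414 CPM in heavy polysomes (1.52, limma adjusted p = 5.5e-05). Ebf1, a lineage factor, had 0.11 with overlapping classes by limma at its tested entry (means of 26.3 and 27.3 CPM). That entry was called higher in monosomes by edgeR (−0.98, adjusted p = 0.00958) and DESeq2 (−1.08, adjusted p = 0.00579). Hbb-b2, a globin, had 1.28 at 7.76 to 43.9 CPM in monosomes, which was called neither after centring nor by edgeR, nor by limma without LUL15, LUL17 or LUL18 (highest limma adjusted p 0.0199). The 7 myeloid markers tested ran from 0.64 to 1.72 (Itgam, limma adjusted p = 0.0114). Itgam and S100a9 averaged 2.89 and 4.60 CPM in monosomes and passed the 5 CPM minimum through their heavy polysome values. The direction of Itgam and S100a9 is therefore no support. Limma called 2 of the 7 markers without LUL16, and edgeR called 1 with all gradients.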
